A study of Homo sapiens with 2 samples.

Results

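Aminoacyl-tRNA synthetases join each amino acid to its transfer RNA, the step that sets the genetic code in practice. Human cells keep a cytosolic set and a separate mitochondrial set, both encoded in the nucleus, and several cytosolic enzymes sit together in a multi-synthetase complex held by the scaffold proteins AIMP1 and AIMP2. When amino acids run short or the endoplasmic reticulum is stressed, the transcription factor ATF4 is made and switches on amino acid transporters, biosynthetic enzymes and many cytosolic synthetases, so the cytosolic and mitochondrial sets can be read against each other. The list held 37 genes chosen by name: 19 cytosolic enzymes or enzyme subunits, 16 mitochondrial enzymes and the 2 scaffolds. Of these, 33 had at least 1 probe set that the platform annotation gives to that gene alone (17 cytosolic, 15 mitochondrial and AIMP1), with 66 such probe sets among the 44672 in the file. No measured value enters this choice of genes, but the family was proposed with earlier results of these data known, so its counts and medians are descriptions.

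LNCaP, a human prostate carcinoma line that responds to androgen, was profiled on Affymetrix U133 Plus 2.0 arrays. Control cells were infected with the empty vector, pLKO.1, as a lentivirus, and knockdown cells with a lentiviral hairpin against KDM4A, a histone lysine demethylase. The control therefore carried no hairpin, and the labels name 1 hairpin construct only. Both viruses were packaged in HEK293T cells, both cultures were grown in the same medium with serum and L-glutamine, and both were harvested 3 days after infection. Each group had 1 array, so no difference has a replicate check, no p-value can be given, and the precision is limited by the number of arrays. Each value is a log2 difference, knockdown minus control, averaged over the probe sets of a gene. The ± SD beside a gene is taken over its own probe sets and holds no spread between cultures. The values had been centred on the mean of the 2 arrays, so a gene's control and knockdown values are mirror images and its level is lost. KDM4A itself was 2.26-fold lower (-1.18 ± 0.40, SD, n = 2 probe sets). The 17689 genes had a median of 0.020, and their quartiles were -0.14 and 0.18. Since levels are lost, luminal prostate markers could not check the cell type. Their median difference was 0.11 over 8 measured genes, that of embryonic kidney markers (the packaging line's origin) -0.013 over 6, of fibroblast and smooth muscle markers 0.044 over 9, and of leukocyte markers 0.012 over 5. Of the markers, 2 of 8 luminal and 1 of 6 embryonic kidney genes were at least 1.5-fold lower and 3 of 9 fibroblast and smooth muscle genes at least 1.5-fold higher, against 4.38% lower and 4.3% higher among all genes. Luminal FOXA1 (-2.39 and 0.079) and fibroblast COL3A1 (-0.065 to 1.30) had probe sets on both sides of 0. Those of ACTA2 (0.43 and 3.85) and COL1A1 (0.037 to 1.57) differed widely in size. Those of luminal TMPRSS2 (-0.87 to -0.53) and embryonic kidney CNTNAP2 (-1.20 to -0.19) all lay below 0. The part of these markers in the results was not tested.

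ATF4 acts with C/EBP partners through an amino acid response element, searched here as TGATGNAA on both strands (TTNCATCA when read on the gene's own strand). Promoter windows from RefSeq (GRCh38.p14), running from 250 bases before a gene's start to 50 after it, were at hand for 32 of the 37 genes. LARS1, VARS1, YARS1, AARS2 and VARS2 had none. The sites are shown because they were found more often in one compartment: 7 of 16 cytosolic synthetases (43.8%) held it, against 1 of 14 mitochondrial ones (7.14%) and 4.46% of all 27305 genes with a window. They follow with 10 bases on each side, on the gene's strand from 5′ to 3′, with the element in capitals, and the ASNS site, from the gene of asparagine synthetase, is added for comparison.
GARS1: tacgcggcgaTTTCATCAtgctccgagc
AARS1: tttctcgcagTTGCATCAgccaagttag
IARS1: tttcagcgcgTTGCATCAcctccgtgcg
CARS1: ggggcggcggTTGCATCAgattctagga
MARS1: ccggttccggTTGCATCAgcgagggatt
NARS1: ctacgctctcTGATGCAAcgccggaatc
TARS1: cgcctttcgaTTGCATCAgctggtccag
YARS2: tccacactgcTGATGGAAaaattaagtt
ASNS: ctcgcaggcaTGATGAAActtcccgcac

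These stretches lie at chr7:30594835-30594862 (GARS1, + strand), chr16:70289676-70289703 (AARS1, - strand), chr9:92293693-92293720 (IARS1, - strand), chr11:3057408-3057435 (CARS1, - strand), chr12:57488054-57488081 (MARS1, + strand), chr18:57621805-57621832 (NARS1, - strand), chr5:33440957-33440984 (TARS1, + strand), chr12:32756077-32756104 (YARS2, - strand) and chr7:97872459-97872486 (ASNS, - strand). The cytosolic sites sat close to the gene start. Counted from the start as position 1, with no position 0, the element began at -33 in GARS1, -13 in IARS1, -4 in MARS1, -2 in CARS1, 3 in TARS1 and 15 in NARS1, and only that of AARS1, at -187, lay farther out. In YARS2 it began at -197 and in ASNS at -68. On the gene's strand 6 of the 7 cytosolic sites read in the reverse direction, NARS1 being the exception. The open letter was the same in 6 of the 7: AARS1, CARS1, IARS1, MARS1, NARS1 and TARS1 all carried TGATGCAA on one strand or the other, a form found in 1.08% of genes with a window. GARS1 carried TGATGAAA, the form of the ASNS site, found in 1.37%, and YARS2 TGATGGAA, found in 1.06%. That split by letter was looked up after the sites had been seen. A match is a run of letters, not a measured binding site.

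Cytosolic synthetases were mostly lower in the knockdown. Of 17 measured, 15 lay below 0, where 46.3% of all genes lay, and 6 were at least 1.5-fold lower, against 4.38% of all genes. None was at least 1.5-fold higher, against 4.3% of all genes. At 2-fold the counts were 3 lower, against 1.44% of all genes, and none higher, against 1.16%. The median of the 17 was -0.41, a 1.33-fold lower level, with quartiles of -0.77 and -0.17. Of their 34 probe sets, 29 lay below 0, against 46.7% of all probe sets with 1 gene. In 11 genes several probe sets could be compared: they agreed in lying below 0 in 8, agreed in lying above it in 1 and were split in 2. In RNA from a whole culture, fewer cells of a kind and less RNA per cell cannot be told apart.

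GARS1, which charges tRNA with glycine in both the cytosol and the mitochondrion, stood farthest from 0. It read 0.99 in the control array and -0.99 in the knockdown array, which is 3.93-fold lower in the knockdown (-1.97, 1 probe set). Only 47 of the 17689 genes lay lower. SARS1, the serine enzyme, read 0.68 in the control and -0.68 in the knockdown array and was 2.56-fold lower (-1.35 ± 0.90, SD, n = 2 probe sets). Its probe sets disagreed in size, at -0.72 and -1.99, and both lay past 1.5-fold. EPRS1, a fused enzyme that charges glutamate and proline tRNAs, read 0.54 and -0.54 and was 2.10-fold lower (-1.07 ± 0.28, SD, n = 3 probe sets), with probe sets at -1.22, -1.24 and -0.75. AARS1, the alanine enzyme, read 0.46 and -0.46 and was 1.90-fold lower (-0.93, 1 probe set). These 4 were among the lowest genes of the arrays: SARS1 had 121 genes below it, EPRS1 216 and AARS1 304.

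WARS1, the tryptophan enzyme, which interferon also induces, read 0.38 in the control and -0.38 in the knockdown array and was 1.70-fold lower (-0.77 ± 0.11, SD, n = 2 probe sets). IARS1, the isoleucine enzyme of the multi-synthetase complex, read 0.35 and -0.35 and was 1.61-fold lower (-0.69, 1 probe set). Just short of 1.5-fold lay LARS1, the leucine enzyme, at -0.53 ± 0.19 over 4 probe sets that all lay below 0, and CARS1, the cysteine enzyme, at -0.52 ± 0.26 over 4 that did so too. FARSB, the beta subunit of the phenylalanine enzyme, lay at -0.41 ± 0.41 over 3 probe sets, 1 of them above 0. YARS1 (tyrosine) lay at -0.38 ± 0.13 over 2 probe sets and NARS1 (asparagine) at -0.30 on 1. KARS1, the lysine enzyme, which like GARS1 serves both compartments, lay at -0.28 ± 0.039 over 2.

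The remaining cytosolic enzymes lay near 0 or above it. TARS1 (threonine) stood at -0.17 ± 0.044 and FARSA, the alpha subunit of the phenylalanine enzyme, at -0.056 ± 0.13, each over 2 probe sets, and RARS1 (arginine) at -0.070 on 1. The 2 above 0 were HARS1 (histidine), at 0.22 on 1 probe set, and VARS1 (valine), at 0.38 on each of 2. FARSA and FARSB form 1 enzyme, yet their gene means stood 1 near 0 and 1 below it. Of the scaffolds, AIMP1 lay at -0.094 ± 0.10 over 3 probe sets, all below 0, and AIMP2 was not analysed here.

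MARS1, QARS1 and TARS2 had no probe set naming them alone, because the annotation pairs theirs with a microRNA gene. Those probe sets stayed outside the counts above. For MARS1, the methionine enzyme of the complex, 3 of them read between -0.67 and -0.58, a mean of -0.63 ± 0.049 (SD, n = 3 probe sets) or 1.55-fold lower. The 1 probe set of QARS1 (glutamine) read 0.15 and that of TARS2 (mitochondrial threonine) 0.10. With these included, an alternative chosen after seeing the data, 7 of 19 cytosolic enzymes were at least 1.5-fold lower, against 4.38% of all genes. The cytosolic median stayed at -0.41.

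**Figure D1:**
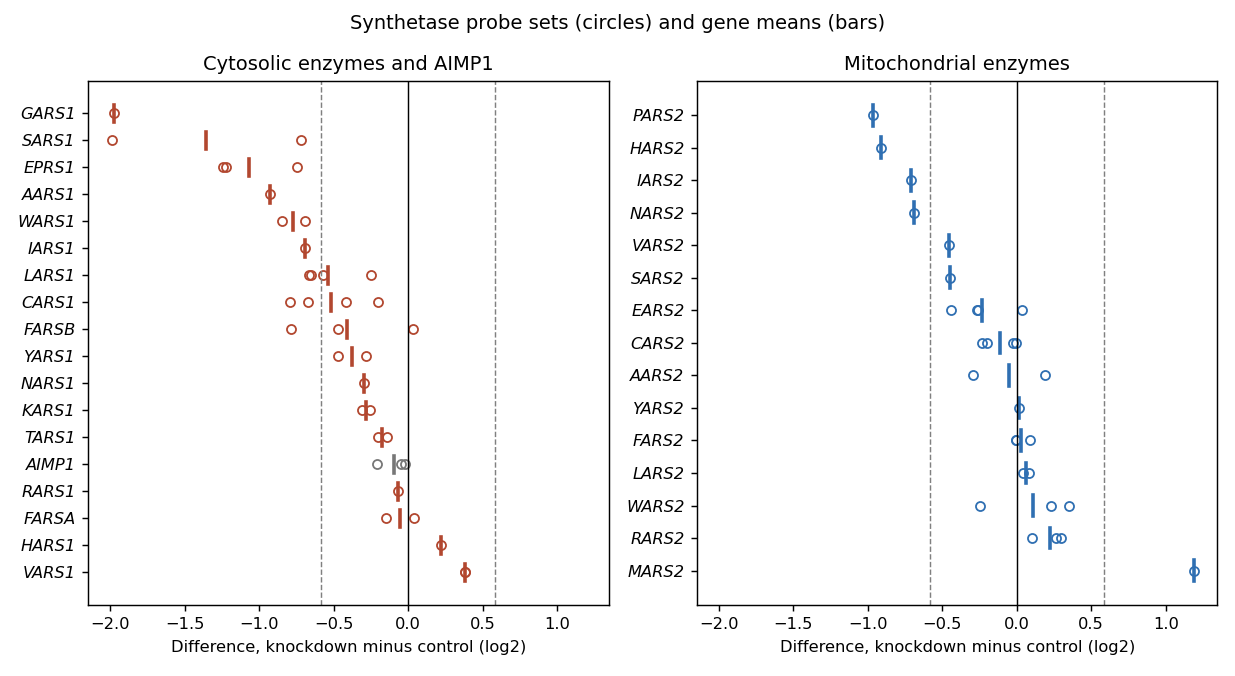
Differences (log2, knockdown minus control, x axis) of each synthetase with a probe set of its own, sorted by gene mean within cytosolic enzymes with AIMP1 (left) and mitochondrial enzymes (right). Circles are probe sets, bars are gene means and dashed lines mark 1.5-fold. GARS1, SARS1 and EPRS1 lie past -1 on the left, while MARS2 stands alone at 1.19 on the right.

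Mitochondrial synthetases were spread around a median closer to 0. Of 15 measured, 9 (60%) lay below 0, where 46.3% of all genes lay, and 6 above it. At least 1.5-fold lower were 4 and at least 1.5-fold higher 1, against 4.38% and 4.3% of all genes. The median was -0.11 and the quartiles were -0.57 and 0.043. The 4 lower genes were PARS2, the proline enzyme (-0.96, 1.95-fold lower), HARS2, the histidine enzyme (-0.91, 1.88-fold), IARS2, the isoleucine enzyme (-0.71, 1.64-fold), and NARS2, the asparagine enzyme (-0.69, 1.61-fold). PARS2 read 0.48 in the control and -0.48 in the knockdown array, HARS2 0.46 and -0.46, IARS2 0.36 and -0.36, and NARS2 0.35 and -0.35. MARS2, the methionine enzyme, went the other way, from -0.59 in the control to 0.59 in the knockdown array, 2.28-fold higher (1.19). Only 137 of 17689 genes lay higher.

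Each of these 5 genes rests on 1 probe set. Of the 8 mitochondrial enzymes with 1 probe set, 4 were at least 1.5-fold lower, against 4.38% of all genes, with a median of -0.57. Of the 7 with 2 or more, none was, and their median was 0.026, with all of them between -0.23 and 0.22. These were EARS2 (glutamate) at -0.23 ± 0.20 over 4 probe sets, CARS2 (cysteine) at -0.11 ± 0.12 over 4, AARS2 (alanine) at -0.054 ± 0.34 over 2, FARS2 (phenylalanine) at 0.026 ± 0.053 over 3, LARS2 (leucine) at 0.060 ± 0.031 over 2, WARS2 (tryptophan) at 0.11 ± 0.32 over 3 and RARS2 (arginine) at 0.22 ± 0.10 over 3. Among cytosolic enzymes the medians were -0.49 for the 6 with 1 probe set and -0.41 for the 11 with 2 or more, of which 3 were at least 1.5-fold lower. VARS2 (valine) at -0.45, SARS2 (serine) at -0.45 and YARS2 (tyrosine) at 0.012, on 1 probe set each, complete the mitochondrial set.

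The medians of the compartments differed by -0.29 on the log2 scale, cytosolic minus mitochondrial, with wide overlap of the members: cytosolic genes ran from -1.97 to 0.38 and mitochondrial ones from -0.96 to 1.19. The SD over members was 0.58 and 0.54. The gap was -0.16 once the _x_at and _s_at probe sets, designs that may hit more than 1 transcript, were left out. That setting leaves out GARS1, EPRS1, IARS1, LARS1 and VARS1 entirely, the last being the highest cytosolic member. It keeps 3 of 12 cytosolic enzymes at least 1.5-fold lower, against 4.38% of all genes with all probe sets kept. Among genes with 2 or more probe sets the gap was -0.43.

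Set amino acid by amino acid, the cytosolic enzyme lay below its mitochondrial partner in 11 of 15 measured pairs, with a median difference within pairs of -0.39. The count was 8 of 15 with each gene's probe set nearest 0. EPRS1 enters 2 of these pairs and FARS2 2, so the pairs are not independent. In 5 pairs the cytosolic enzyme was at least 1.5-fold lower than its partner: serine (-0.91), tryptophan (-0.88), alanine (-0.87), glutamate (-0.84) and leucine (-0.59). For tryptophan and leucine the partners lay on opposite sides of 0. Proline and isoleucine were the pairs in which both enzymes were at least 1.5-fold lower, and within them the difference was -0.11 and 0.022. Asparagine ran in reverse (0.39), and histidine (1.14) and valine (0.84) did so by more than 1.5-fold.

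**Figure D2:**
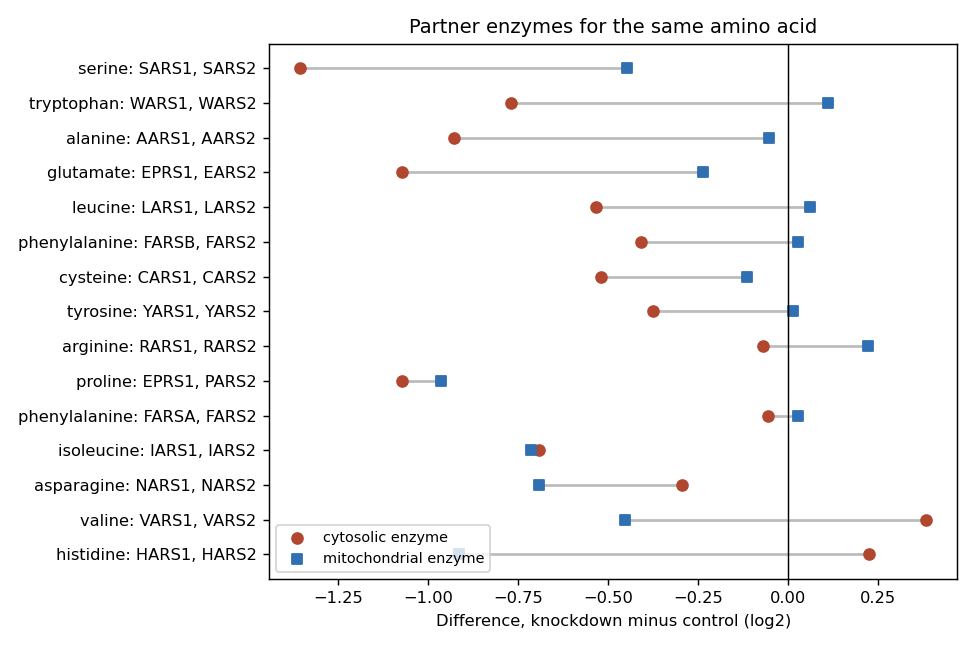
Log2 differences (x axis) of the cytosolic enzyme (circle) and the mitochondrial enzyme (square) for each amino acid with both measured, sorted by the gap between them. The cytosolic enzyme lies to the left in 11 of 15 pairs, and histidine and valine show the widest gaps in the other direction, 1.14 and 0.84.

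The histidine pair is encoded head to head. HARS1, on the minus strand, and HARS2, on the plus strand, have 84 bases between their starts, at chr5:140691371-140691454 (GRCh38.p14). The stretch between the starts is printed on the plus strand because the genes on either side of it differed in direction, HARS1 at 0.22 and HARS2 at -0.91, each on 1 probe set.
HARS1 to HARS2: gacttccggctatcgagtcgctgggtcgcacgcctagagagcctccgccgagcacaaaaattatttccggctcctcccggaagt

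None of the 4 motifs searched (the amino acid response element and those of NRF1, the E-box factors and YY1) is in the windows of HARS1 or HARS2. That says only that these letters are not there.

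Within the cytosolic set, all 6 genes at least 1.5-fold lower were among those often listed as ATF4 targets. This subset, fixed with earlier results of these data known, comprised AARS1, CARS1, EPRS1, GARS1, IARS1, MARS1, NARS1, SARS1, TARS1, WARS1 and YARS1. All 10 measured members lay below 0, where 46.3% of all genes lay, and 6 were at least 1.5-fold lower, against 4.38% of all genes. Their median was -0.73 (1.66-fold lower). Of the other 7 measured cytosolic enzymes 5 lay below 0 and none reached 1.5-fold, with a median of -0.070, inside the quartiles of all genes. The subsets overlapped: LARS1 (-0.53), outside the ATF4-linked subset, lay below CARS1, YARS1, NARS1 and TARS1 within it. LARS1 stood at -0.61, past 1.5-fold, when the median over its probe sets was taken. The difference of the medians was -0.66, -0.35 without _x_at and _s_at probe sets and -0.36 when genes with 1 probe set were left out. The multi-synthetase complex did not divide the set in this way. Its 5 measured enzymes had a median of -0.53 with 2 at least 1.5-fold lower, and the 12 free enzymes a median of -0.39 with 4. The share among all genes was again 4.38%.

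Genes of the amino acid response other than synthetases were lower as well. All 34 measured members of a list of 35 lay below 0, where 46.3% of all genes lay. Of the 34, 23 were at least 1.5-fold and 12 at least 2-fold lower, against 4.38% and 1.44% of all genes. The median was -0.87 (1.83-fold lower). This list too was chosen with earlier results of these data known, so its counts are descriptions. CTH, which makes cysteine from cystathionine, was 6.43-fold lower (-2.68 ± 0.17, SD, n = 2 probe sets). PCK2, the mitochondrial phosphoenolpyruvate carboxykinase, lay at -1.98, ASNS at -1.68 and SLC7A11, the cystine transporter, at -1.66 ± 0.51 over 3 probe sets. TRIB3, a pseudokinase induced by ATF4, lay at -1.36 ± 0.023 over 2, EIF4EBP1, a repressor of cap-dependent translation, at -1.33, CBS, which makes cystathionine, at -1.22 ± 0.051 over 3 and SLC1A5, a glutamine transporter, at -1.15. The transcript of ATF4 itself lay at -0.87 (1 probe set). Nearest 0 were ALDH1L2 (-0.045, 1 probe set) and ALDH18A1 (-0.059 ± 0.0032 over 2). SLC7A1, ATF5 and SESN2 had means below 0 but probe sets on both sides of it.

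General translation genes lay closer to 0 than those of the amino acid response. Cytosolic initiation, elongation and termination factors had a median of -0.13 over 28 measured genes, near the -0.11 of the mitochondrial synthetases. Of the 28, 19 (67.9%) lay below 0, against 46.3% of all genes, and 2 (7.14%) were at least 1.5-fold lower, against 4.38%. These were EIF1AX, which helps scan for the start codon (-0.89 ± 0.24, SD, n = 4 probe sets), and EIF2S3, a subunit of the initiator tRNA carrier (-0.65 ± 0.19, SD, n = 3 probe sets). Mitochondrial translation factors had a median of -0.020 over 15, with 8 (53.3%) below 0. None was at least 1.5-fold lower and 1 was higher, against 4.38% and 4.3% of all genes: TRMU, which modifies mitochondrial tRNAs (0.65, 1 probe set). Other tRNA-handling genes had a median of -0.18 over 11 of 15 listed. SEPSECS, which completes selenocysteine on its tRNA, lay at -0.66 ± 0.33 over 5 probe sets and YRDC, which modifies tRNA adenosine, at 0.81 ± 0.28 over 2. A further list, of mitosis genes, lay lower. All 20 were below 0, with a median of -1.65 and 18 at least 1.5-fold lower, against the same 4.38%. The part of the mitosis list in the synthetase differences was not tested.

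**Figure D3:**
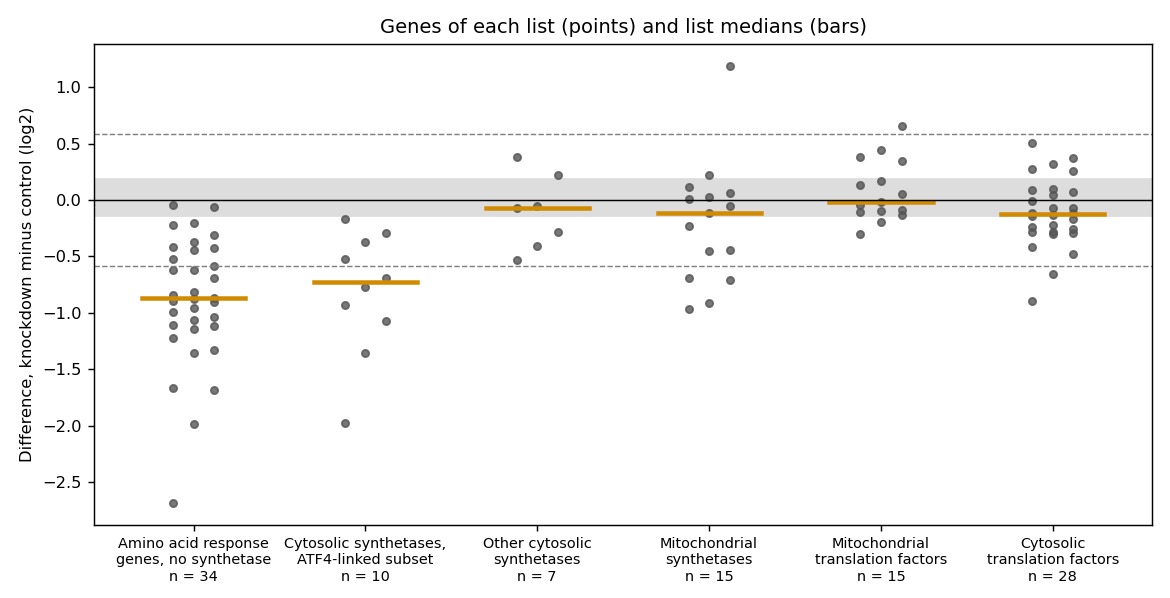
Log2 differences (y axis) of single genes (points) and list medians (bars) for 6 lists, with the number of measured genes under each. The grey band spans the quartiles of all genes and dashed lines mark 1.5-fold. The amino acid response genes and the ATF4-linked cytosolic synthetases centre at -0.87 and -0.73, the other lists between -0.13 and -0.020.

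Enzymes with and without the element were both among the lowest of the cytosolic set. The 6 measured enzymes with TGATGNAA had a median of -0.61 and ran from -1.97 (GARS1) to -0.17 (TARS1). They counted 3 at least 1.5-fold lower, against 4.38% of all genes. The 8 without it had a median of -0.34, ran from -1.35 (SARS1) to 0.22 (HARS1) and also counted 3, namely SARS1, EPRS1 and WARS1. LARS1, YARS1 and VARS1, the highest cytosolic member, had no window and are in neither group. YARS2, the mitochondrial enzyme with a match, lay at 0.012, and all 4 mitochondrial enzymes at least 1.5-fold lower were without one. SARS1 is shown as the lowest gene with no match. The 250 bases before its upstream start, at chr1:109213643-109213892 on the plus strand (GRCh38.p14), hold in capitals a match to the NRF1 motif.
SARS1: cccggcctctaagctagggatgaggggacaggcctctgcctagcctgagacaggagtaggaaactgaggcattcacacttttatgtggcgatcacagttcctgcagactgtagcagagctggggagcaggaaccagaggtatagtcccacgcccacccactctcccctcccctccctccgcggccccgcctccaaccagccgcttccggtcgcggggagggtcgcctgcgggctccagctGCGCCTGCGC

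**Figure D4:**
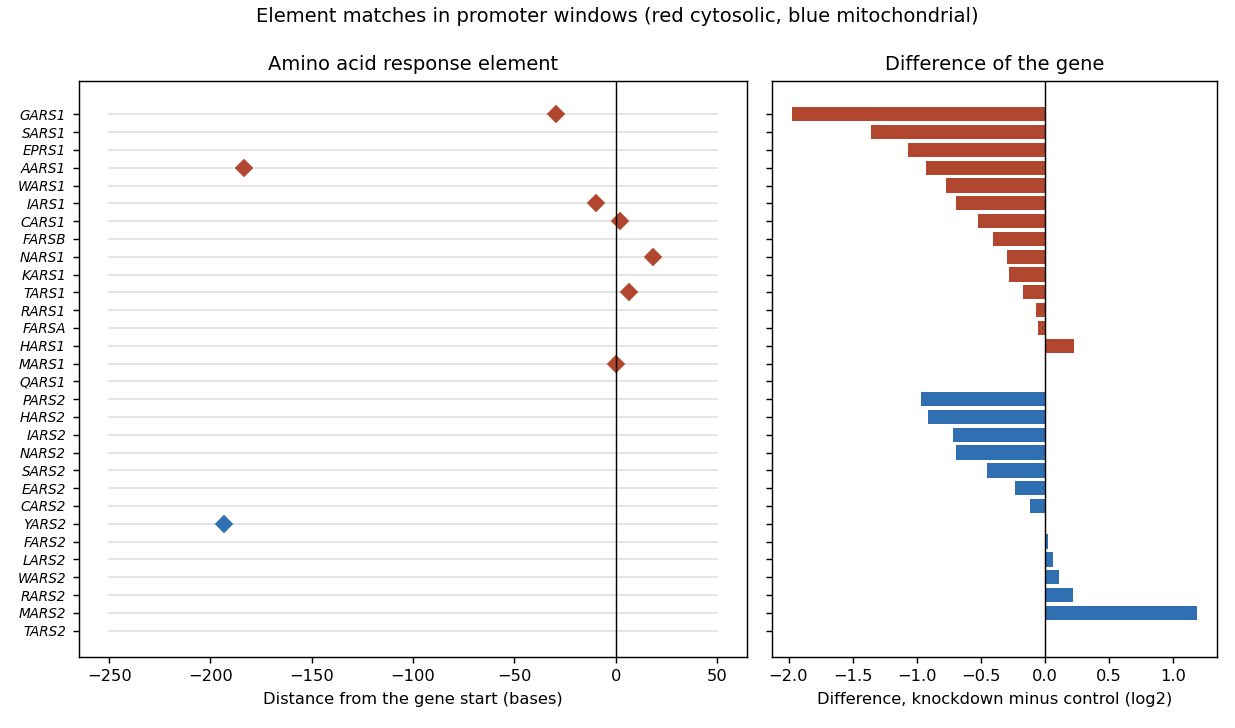
Left, midpoints of TGATGNAA matches (diamonds) by distance in bases from the gene start in cytosolic (red) and mitochondrial (blue) synthetases with a promoter window. Right, the log2 difference of each gene, with no bar for MARS1, QARS1 and TARS2. Matches lie in 7 cytosolic genes and 1 mitochondrial gene, while SARS1, EPRS1 and WARS1 are lower with none.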

How the data were processed

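The deposited file gives log2-scale values for 44672 probe sets on 2 arrays. Per the submitters' processing notes the authors used RMA, a multi-array summary of probe signals; its version was not given. The columns summed to 0 in every row within 1e-06, so each probe set is centred on the mean of the arrays. How and when values were centred, the log base (taken as 2) and any earlier filter are not stated in these sources, and dim probe sets could not be set aside. Genes were named through the platform annotation: 34880 probe sets named 1 gene, 1619 several and 8131 none, and 42 control probe sets were left out. RefSeq (GRCh38.p14) matched 34839 by Entrez identifier and changed no symbol. A gene's difference is the mean over its probe sets, and genes were called by size (1.5-fold, with 2-fold beside it). All 37 members were named whatever their values, and of other lists up to 8 members at least 1.5-fold apart. Besides these, ATF4 and the amino acid response genes nearest 0 or with split probe sets were named. Members and lists were chosen with earlier results of these data known. The calculation was tested on simulated data. Python 3.11.15, numpy 2.4.6 and pandas 2.3.3 were used.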

Additional observations from a re-analysis of the deposited data

How the results depend on the processing

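With 1 array in each group no replicate could be left out. No paired analysis was possible because each group has a single sample. The alternatives left 45 of 61 summary values within the error that the spread between probe sets gives (or within 1.5 times, for counts) and moved 16. Without _x_at and _s_at probe sets the cytosolic median was -0.30, its gap to the mitochondrial median -0.16, the count of cytosolic enzymes at least 1.5-fold lower 3 and the gap between the ATF4-linked subset and the rest -0.35. With genes of 2 or more probe sets alone, the mitochondrial median turned to 0.026, its gap -0.43 and that subset gap -0.36. In that setting cytosolic enzymes lay lower in 6 of 6 pairs, 3 cytosolic and 0 mitochondrial enzymes were at least 1.5-fold lower and 14 of 19 members lay below 0. These 2 settings leave out genes by construction. With each gene's probe set nearest 0 the medians were -0.25 (cytosolic) and -0.0020 (mitochondrial), and cytosolic enzymes lay lower in 8 of 15 pairs. With medians over probe sets 7 cytosolic enzymes were at least 1.5-fold lower, LARS1 being added. The mean over cytosolic enzymes was -0.52. At 2-fold the counts were 3 cytosolic and 0 mitochondrial, against 1.44% of all genes. For the counts at 1.5-fold, the share of all genes in the main setting was 4.38%. Subtracting the median difference of all probe sets, using medians over probe sets, leaving out GARS1 and KARS1 and regrouping the scaffolds moved no summary value past those limits. Part of this was fixed in advance. Subtracting a constant cannot change a gap between medians or a count of pairs. AIMP2 had no value, so regrouping the scaffolds only added AIMP1 to the cytosolic set. Of 179 values of single members under the alternatives, 7 moved, and no member at least 1.5-fold apart turned sign. For a member with 1 probe set that outcome was fixed in advance, as only subtracting the overall median could change its value. Among those at least 1.5-fold apart this holds for AARS1, GARS1, IARS1, HARS2, IARS2, MARS2, NARS2 and PARS2. Of 54 list medians 11 moved, and with the probe set nearest 0 those of other tRNA-handling genes and mitochondrial translation factors turned to 0.037 and 0.072.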

Other observations

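Synthetases fall into 2 structural classes with unrelated catalytic folds, and both compartments hold enzymes of each class. Cytosolic class I enzymes had a median of -0.52 and a mean of -0.37 over 7 measured genes, 2 of them at least 1.5-fold lower. Cytosolic class II enzymes had a median of -0.30 and a mean of -0.58 over 9, 3 of them at least 1.5-fold lower, so median and mean order the classes differently. EPRS1, which joins both classes, was left aside. In mitochondria the values were a median of 0.012 over 9 class I enzymes, 1 of them at least 1.5-fold lower, and of -0.57 over 6 class II enzymes, 3 of them at least 1.5-fold lower (PARS2, HARS2 and NARS2, on 1 probe set each), and the means were 0.0089 and -0.51. Among all genes 4.38% were at least 1.5-fold lower, the share to set beside each of these counts. The split by class was not tested.

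The other motifs did not sort the compartments in the way of the amino acid response element. The NRF1 motif was in the windows of 3 of 16 cytosolic (SARS1, FARSB, TARS1) and 3 of 14 mitochondrial synthetases (PARS2, IARS2, MARS2), against 6.98% of all genes. MARS2, the member farthest above 0, and PARS2, the mitochondrial member farthest below it, both hold this motif. The E-box CACGTG was in 1 and 3 (8.77% of all genes) and the YY1 motif AAGATGG in 6 and 3 (7.11%). By value, the 6 measured cytosolic enzymes with the YY1 motif had a median of -0.29, with 1 at least 1.5-fold lower. The 8 without it had a median of -0.73, with 5 at least 1.5-fold lower, against 4.38% of all genes. That difference by YY1 motif was not tested. All motifs were searched on both strands, and the YY1 motif shares the run GATG with TGATGNAA. Among the amino acid response genes other than synthetases, 8 of 27 with a window held TGATGNAA, against 4.46% of all genes with a window.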
